A study of Homo sapiens with 6 samples.

Results

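The genes described here are the insulin-like growth factor (IGF) receptor gene IGF1R, its docking-protein genes IRS1 and IRS2, the IGF-binding protein genes IGFBP2 to IGFBP7, and PAPPA, which encodes a protease of binding proteins. They were picked by name, 10 genes in all, out of 18417 genes measured. For 9 of the 10 the platform annotation gave a probe set of their own, and for each gene the probe set whose mean was highest was used. The 1 probe set of IGFBP6 is also assigned to C12orf57, so IGFBP6 has no value here. Expression was measured on 6 Affymetrix whole-transcript arrays of A673 and SK-N-MC, established lines of Ewing sarcoma, a bone and soft tissue tumour driven by fusion of EWSR1 with an ETS factor gene. Each line had 1 array with a control siRNA, meant to silence no gene. Each had 1 with an siRNA against DKK2 (siDKK2), which encodes a secreted modulator of Wnt signalling. Each also had 1 with an siRNA against ITM2A (siITM2A), which encodes a membrane protein. All groups shared the transfection and a high-serum medium, and serum itself contains IGFs and binding proteins. The siITM2A arrays carry the siRNA number 7 for A673 and 1 for SK-N-MC, so they may not share an oligonucleotide. With 1 array per line and siRNA, the lines served as the replicates of each siRNA comparison, and no repeat culture of a condition was measured.

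IGF1 and IGF2 bind the receptor tyrosine kinase IGF1R, which then phosphorylates the docking proteins IRS1 and IRS2 and so engages PI3K-AKT and RAS-ERK signalling. In the extracellular space most IGF is held by binding proteins, which keep it from the receptor or deliver it, and PAPPA frees IGF by cutting IGFBP4 and IGFBP5. Ewing sarcoma cells are known to depend on IGF1R signalling, and IGFBP3 is a known gene repressed by the EWSR1-FLI1 fusion.

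RefSeq promoter windows (GRCh38.p14) matched 9 of the 10 genes, with 11 windows, since IGFBP2 had 3. The 250 bases before the annotated start follow for 4 genes: IGFBP4 and IGFBP5, which differed most between the lines, and IGFBP2 and PAPPA, which had the largest siRNA differences. For IGFBP2 the window with the most GGAA matches is shown. Capitals mark the ETS core GGAA, on either strand (TTCC on the strand shown), and the TATA box motif TATAAA. The windows lie at chr17:40443200-40443449 (plus strand) for IGFBP4, chr2:216695550-216695799 (minus strand) for IGFBP5, chr2:216633170-216633419 (plus strand) for IGFBP2 and chr9:116153541-116153790 (plus strand) for PAPPA.
IGFBP4: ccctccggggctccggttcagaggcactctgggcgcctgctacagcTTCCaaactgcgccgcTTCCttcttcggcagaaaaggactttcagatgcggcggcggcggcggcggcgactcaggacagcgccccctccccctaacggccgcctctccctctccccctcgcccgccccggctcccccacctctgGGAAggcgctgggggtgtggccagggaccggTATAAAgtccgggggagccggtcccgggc
IGFBP5: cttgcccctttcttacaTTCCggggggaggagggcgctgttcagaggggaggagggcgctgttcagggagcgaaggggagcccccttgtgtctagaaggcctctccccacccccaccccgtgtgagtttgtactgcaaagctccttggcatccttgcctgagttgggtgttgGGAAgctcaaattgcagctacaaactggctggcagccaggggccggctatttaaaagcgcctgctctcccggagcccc
IGFBP2: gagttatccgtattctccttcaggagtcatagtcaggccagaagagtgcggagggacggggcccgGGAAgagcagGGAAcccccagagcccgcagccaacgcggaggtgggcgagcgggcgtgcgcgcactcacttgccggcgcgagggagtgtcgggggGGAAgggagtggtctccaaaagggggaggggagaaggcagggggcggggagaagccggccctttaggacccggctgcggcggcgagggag
PAPPA: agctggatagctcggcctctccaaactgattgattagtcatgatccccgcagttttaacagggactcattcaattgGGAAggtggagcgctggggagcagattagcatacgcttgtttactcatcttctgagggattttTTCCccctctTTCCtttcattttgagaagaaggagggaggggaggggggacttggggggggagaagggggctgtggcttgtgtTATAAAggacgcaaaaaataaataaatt

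TATAAA was found in 2 of the 11 windows, with its first letter 29 bases before the start of IGFBP4, the binding protein gene, and 28 bases before that of PAPPA, the gene of its protease. Of 35116 windows of the same length in the table, 10.7% hold TATAAA on either strand. GGAA was found in 10 of the 11 windows, 3 times each in IGFBP4, PAPPA and the IGFBP2 window shown and 2 times in IGFBP5, against 92.7% of all windows and a median of 3 matches in each. The tandem GGAAGGAA, which contains the ETS core, was in 0 of the 11 (3.1% of all), the AP-1 site TGANTCA in 0 (6.6%) and the interferon-stimulated response element in 0 (3.0%). The FOXO site GTAAACA was in 2, PAPPA and IGFBP6 (3.0%). All were searched on both strands, and a match describes letters only.

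On the log2 scale of the deposited values, DKK2 read 7.73 with its siRNA against 8.64 with the control siRNA in A673, and 6.50 against 8.01 in SK-N-MC. ITM2A read 8.52 against 5.03 with its siRNA in A673 and 9.48 against 6.10 in SK-N-MC. The DKK2 difference of -1.21 ± 0.17 did not pass (limma, adjusted p = 0.209, and 0.0254 with an intensity trend). The ITM2A difference of -3.44 ± 0.17 passed (limma, adjusted p = 0.000442). That call was lost with every probe set tested (limma, adjusted p = 0.130) and with no replicate block. Of the 10 Ewing sarcoma markers listed, 9 were measured. On every array 7 of these (CD99, NKX2-2, STEAP1, CCND1, PRKCB, LIPI and NPY1R) lay more than 1 above the array's median. GLI1 lay near or below the median on every array, and CCK missed the margin only in A673. The margin was passed on every array by 0 of the leukocyte, endothelial and muscle markers. Of the 4 epithelial markers 1 (KRT8) passed it, and of the 4 fibroblast markers 2 (COL1A1 and PDGFRB). The share of all genes past this margin was not computed. Array medians were 3.35 to 3.44, and values near them are dim. The number of arrays limits the precision of every value, and in bulk RNA fewer expressing cells and less RNA per cell cannot be told apart.

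With siDKK2, IGFBP2 had the largest difference among the 9 genes, 1.82-fold higher than control for A673 and 1.48-fold for SK-N-MC, without passing the test over all genes. With siITM2A the largest was PAPPA, 1.71-fold and 1.24-fold higher, also without passing. Between the lines 6 of the 9 genes passed, against 28.5% of all genes. IGFBP4, IGFBP5, IGFBP7 and IRS2 were lower in A673 and IGFBP2 and IRS1 were higher. Of these, IRS1, IGFBP2 and IGFBP7 missed the threshold without either siITM2A array.

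**Figure D1:**
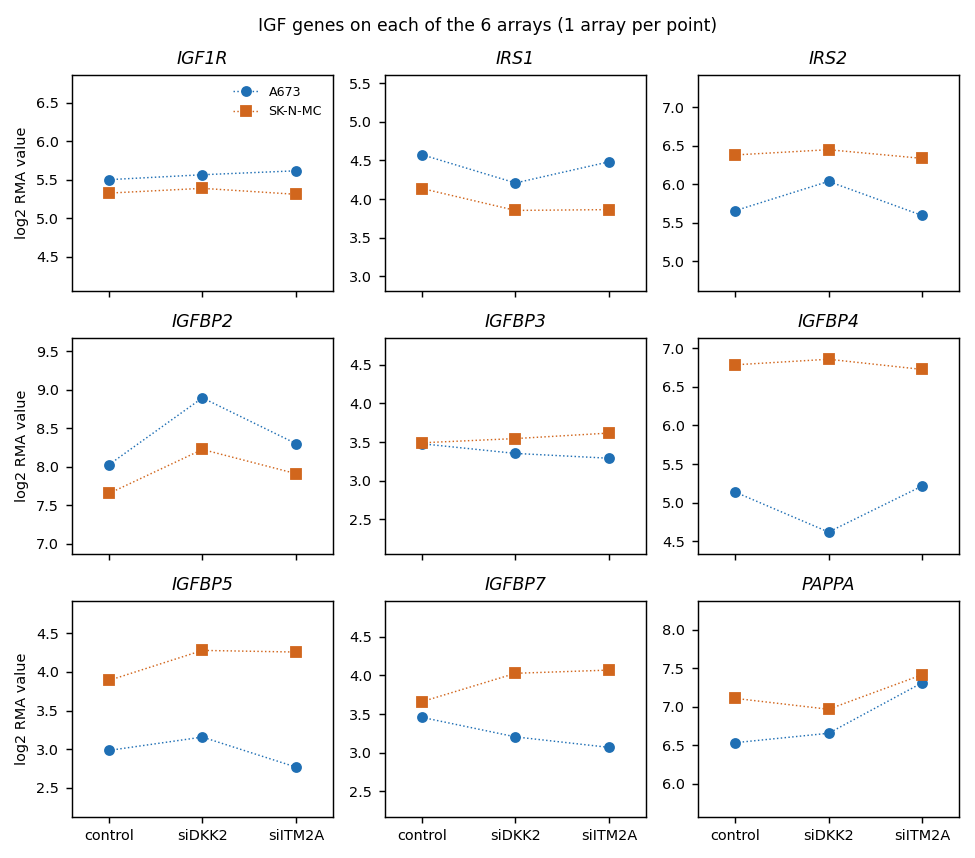
Log2 RMA values (vertical axis, the same height of 2.8 units in each panel) of the 9 measured genes on the 6 arrays, with the siRNA on the horizontal axis and 1 point per array; circles are A673 and squares SK-N-MC, and dotted lines only join points of a line. IGFBP4 lies between 4.62 and 5.21 in A673 and between 6.73 and 6.86 in SK-N-MC, and IGFBP2 is highest with siDKK2 in each line.

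IGF1R, the receptor gene, had close values on all arrays. It read 5.50 with the control siRNA, 5.57 with siDKK2 and 5.62 with siITM2A in A673, and 5.33, 5.39 and 5.31 in SK-N-MC. All 3 A673 values lay above the 3 SK-N-MC values, by 0.22 ± 0.10 (SE, n = 3 siRNAs), which missed the threshold of 0.05 (limma, adjusted p = 0.172). The siDKK2 difference was 0.06 ± 0.13 (SE, n = 2 lines; limma, adjusted p = 0.939).

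A second probe set of IGF1R gave other values. It read 4.48, 5.22 and 4.99 in A673 (control, siDKK2, siITM2A) and 4.81, 5.00 and 4.65 in SK-N-MC. Its siDKK2 difference was 0.74 for A673 and 0.19 for SK-N-MC, against 0.06 and 0.06 for the first probe set, and its fitted value of 0.46 ± 0.19 did not pass over all probe sets (limma, adjusted p = 0.680). Between the lines the second probe set differed by 0.08 ± 0.16 (limma, adjusted p = 0.833 over all probe sets), and its values overlapped. The probe sets thus disagree on size for A673 and on the overlap of the lines, and neither showed a difference that passed.

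IRS1, the docking protein gene, was lower with siDKK2 by value in each line. It read 4.57 with control, 4.21 with siDKK2 and 4.48 with siITM2A in A673, and 4.14, 3.85 and 3.86 in SK-N-MC. The siDKK2 difference of -0.33 ± 0.13 did not pass (limma, adjusted p = 0.551; -0.37 for A673 and -0.28 for SK-N-MC). IRS1 was higher in A673 than in SK-N-MC by 0.47 ± 0.11 (limma, adjusted p = 0.0114), with all A673 values above all SK-N-MC values; without either siITM2A array the difference was 0.40 and missed the threshold (limma, adjusted p = 0.0891).

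IRS2, the second docking protein gene, ran the other way. It read 5.66 with control, 6.04 with siDKK2 and 5.60 with siITM2A in A673, and 6.38, 6.45 and 6.33 in SK-N-MC. IRS2 was lower in A673 by 0.62 ± 0.11 (difference -0.62; limma, adjusted p = 0.0036), and the lines did not overlap. Its siDKK2 difference was 0.38 for A673 and 0.07 for SK-N-MC and did not pass (0.22 ± 0.14; limma, adjusted p = 0.697).

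IGFBP2 encodes a secreted binding protein that prefers IGF2. It read 8.03 with control, 8.89 with siDKK2 and 8.30 with siITM2A in A673, and 7.65, 8.23 and 7.91 in SK-N-MC. Both siDKK2 values lay above both control values, and in each line the siITM2A value lay between control and siDKK2. The siDKK2 difference was 0.72 ± 0.14 (SE, n = 2 lines), short of the threshold (limma, adjusted p = 0.246 over all genes, and 0.0665 to 1.00 over the alternatives; higher in 2 of 2 lines).

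The siITM2A difference of IGFBP2 was 0.27 ± 0.14 (0.27 for A673 and 0.26 for SK-N-MC; limma, adjusted p = 0.792), against the same control arrays. Taken directly, siDKK2 stood above siITM2A by 0.59 for A673 and 0.31 for SK-N-MC, and that 0.45 ± 0.14 did not pass either (limma, adjusted p = 0.467). IGFBP2 was higher in A673 than in SK-N-MC within each siRNA, by 0.37 with control, 0.67 with siDKK2 and 0.39 with siITM2A. The line difference of 0.48 ± 0.11 passed (limma, adjusted p = 0.0126), but the lines overlapped when siRNAs were pooled, and the call was lost without either siDKK2 array (0.38; limma, adjusted p = 0.0852), without either siITM2A array (0.52; limma, adjusted p = 0.0516) and without siRNA as a block (limma, adjusted p = 0.160).

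Interferon-induced genes also had lower values with siDKK2. Of 16 listed, 15 were measured, and 0 of these passed (limma, 15 at an unadjusted p under 0.05, against 8.68% of all genes). In 14 of the 15 the value was lower than control in both lines, as in 31.6% of all genes, with median differences of -3.15 for A673 and -0.87 for SK-N-MC. With siITM2A 13 of the 15 were lower than control in both lines, as were 30.7% of all genes. The median differences were then -0.97 for A673 and -0.27 for SK-N-MC. Both comparisons use the same control arrays. Their summed log2 level was 68.7 to 107.0 on the control arrays, 54.6 to 57.4 with siDKK2 and 64.0 to 91.7 with siITM2A. Its part in the IGFBP2 values was not tested.

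IGFBP4, the inhibitory binding protein cut by PAPPA, set the lines apart most among the 9 genes. It read 5.14 with control, 4.62 with siDKK2 and 5.21 with siITM2A in A673, and 6.79, 6.86 and 6.73 in SK-N-MC. IGFBP4 was 3.48-fold lower in A673 (difference -1.80 ± 0.15; limma, adjusted p = 4.87e-05), and the groups were far apart. The A673 siDKK2 array was the lowest of the 6, so the line difference was -2.24 on the siDKK2 arrays against -1.65 on the control and -1.51 on the siITM2A arrays. With siDKK2 against control IGFBP4 differed by -0.52 for A673 and 0.07 for SK-N-MC (fitted -0.22 ± 0.18; limma, adjusted p = 0.778), and with 1 array per condition the gap between the lines could not be tested.

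IGFBP5, a second substrate of PAPPA with strong ties to bone, was also lower in A673. It read 2.98 with control, 3.16 with siDKK2 and 2.77 with siITM2A in A673, and 3.89, 4.28 and 4.26 in SK-N-MC. The A673 values lay below the array medians and the SK-N-MC values above them, so the 2.26-fold difference (-1.17 ± 0.13; limma, adjusted p = 0.000253) may be understated. The siDKK2 difference of 0.28 ± 0.16 did not pass (limma, adjusted p = 0.673; 0.17 for A673 and 0.39 for SK-N-MC).

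IGFBP7 encodes a related secreted protein that binds IGFs weakly. It read 3.46 with control, 3.20 with siDKK2 and 3.07 with siITM2A in A673, and 3.66, 4.03 and 4.07 in SK-N-MC. The lines were 0.20 apart on the control arrays and further apart with either siRNA, by 0.82 and 1.00, because the values lay below control in A673 and above it in SK-N-MC. In A673 the control value lay near the array median and the values with either siRNA below it, so these sizes are uncertain. The line difference was -0.68 ± 0.16 (limma, adjusted p = 0.0115), and it missed the threshold without either siDKK2 array (-0.60; limma, adjusted p = 0.0569), without either siITM2A array (-0.51; limma, adjusted p = 0.108) and with every probe set tested (limma, adjusted p = 0.0570). The siRNA differences, -0.25 and 0.37 with siDKK2 and -0.39 and 0.41 with siITM2A, share the control arrays, and their fitted means of 0.06 and 0.01 did not pass (limma, adjusted p = 0.968 and 0.997).

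IGFBP3, the main circulating carrier of IGFs and a known fusion-repressed gene, had close values on all arrays too. It read 3.48 with control, 3.35 with siDKK2 and 3.29 with siITM2A in A673, and 3.49, 3.54 and 3.62 in SK-N-MC. These values lie close to the array medians in both lines, and no comparison of IGFBP3 passed (limma, lowest adjusted p = 0.310, between the lines).

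PAPPA, the protease gene, was highest with siITM2A in each line. It read 6.53 with control, 6.66 with siDKK2 and 7.31 with siITM2A in A673, and 7.11, 6.97 and 7.41 in SK-N-MC. Both siITM2A values lay above the other 4. Against control the difference was 0.54 ± 0.15 (0.78 for A673 and 0.31 for SK-N-MC), which did not pass (limma, adjusted p = 0.670, and 0.371 to 1.00 over the alternatives; higher in 2 of 2 lines). Against siITM2A, siDKK2 stood lower by value (-0.55 ± 0.15; -0.65 for A673 and -0.45 for SK-N-MC; limma, adjusted p = 0.403), and siDKK2 differed from control by -0.01 ± 0.15 (limma, adjusted p = 0.994). PAPPA differed between the lines by -0.33 ± 0.12 without passing (limma, adjusted p = 0.0806).

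**Figure D2:**
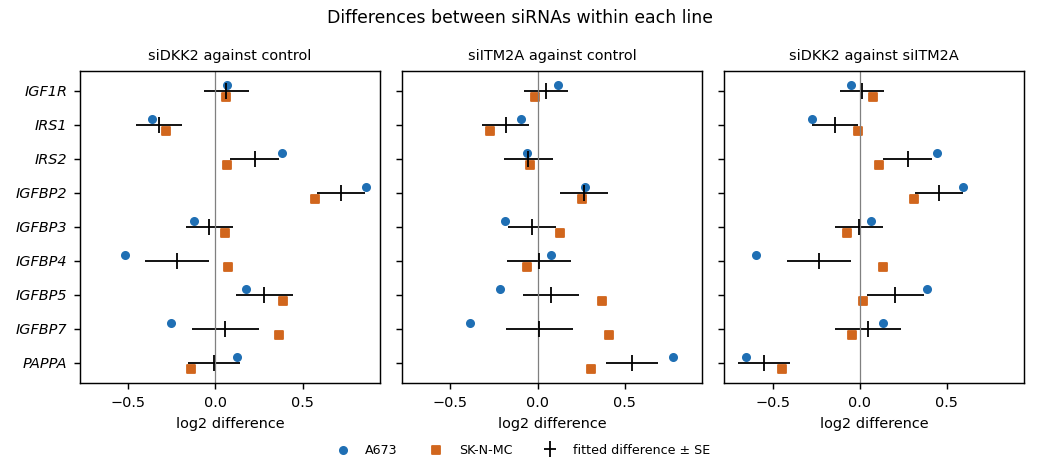
Log2 differences (horizontal axis) of the 9 genes for the 3 siRNA comparisons; circles are A673, squares SK-N-MC, and black bars the fitted difference ± SE over both lines. IGFBP2 with siDKK2 (0.87 and 0.57) and PAPPA with siITM2A (0.78 and 0.31) have the largest fitted differences from control, 0.72 and 0.54, and IGFBP7 has opposite signs in the lines for both comparisons with control.

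Over the 9 genes, 0 passed with siDKK2 against control (limma, 2 at an unadjusted p under 0.05, IGFBP2 and IRS1), where 0.0109% of all genes passed and 8.68% had an unadjusted p under 0.05. By direction, 4 were higher and 1 lower in both lines with siDKK2, and 4 had opposite signs. Among all genes 23.2% were higher and 31.6% lower in both lines, 54.8% together. The median difference of the 9 was 0.06, against -0.02 over all genes, and the median size regardless of sign 0.22 against 0.12. In 1 of the 9, IGFBP2, both siDKK2 arrays lay above both control arrays; in 24.2% of all genes both lay above or both below.

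With siITM2A against control 0 of the 9 passed (limma, 1 at an unadjusted p under 0.05, PAPPA), where 0.0109% of all genes passed and 6.91% had an unadjusted p under 0.05. Here 2 were higher and 2 lower in both lines, against 21.2% and 30.7% of all genes (51.9% together), and the median size was 0.05 against 0.11 over all genes. In 1 of the 9, PAPPA, both siITM2A arrays lay above both control arrays; in 22.0% of all genes both lay above or both below. The siDKK2 and siITM2A comparisons use the same control arrays and are not separate evidence. With siDKK2 against siITM2A 0 of the 9 passed (limma, 2 at an unadjusted p under 0.05, IGFBP2 and PAPPA), where 0.0163% of all genes passed and 8.32% had an unadjusted p under 0.05. Between the siRNAs 3 of the 9 were higher and 2 lower in both lines, against 27.4% and 27.5% of all genes (55.0% together), and in PAPPA alone both siDKK2 arrays lay below both siITM2A arrays, while in 23.8% of all genes both lay above or both below. None of these 3 counts of 0 moved under any alternative that was run.

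Between the lines, 6 of the 9 genes passed, 2 higher and 4 lower in A673, where 28.5% of all genes passed (13.8% higher and 14.7% lower). In 7 of the 9 the 3 arrays of a line all lay above or below the other 3, as in 38.9% of all genes. IGFBP2 and PAPPA overlapped, and IGF1R is counted by its first probe set only. Within each of the 3 siRNAs, 3 genes were higher in A673 and 6 lower, none with mixed signs, against 24.6% and 29.4% of all genes (53.9% together), and 7 of the 9 had an unadjusted p under 0.05 (all genes 37.0%). The median size of the difference was 0.48 against 0.18 over all genes. IGFBP4, IGFBP5 and IRS2 passed under every alternative in which they were tested, with a highest adjusted p of 0.00265, 0.00536 and 0.0404 (limma). The count was 3 without either siITM2A array, when IRS1, IGFBP2 and IGFBP7 missed the threshold.

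**Figure D3:**
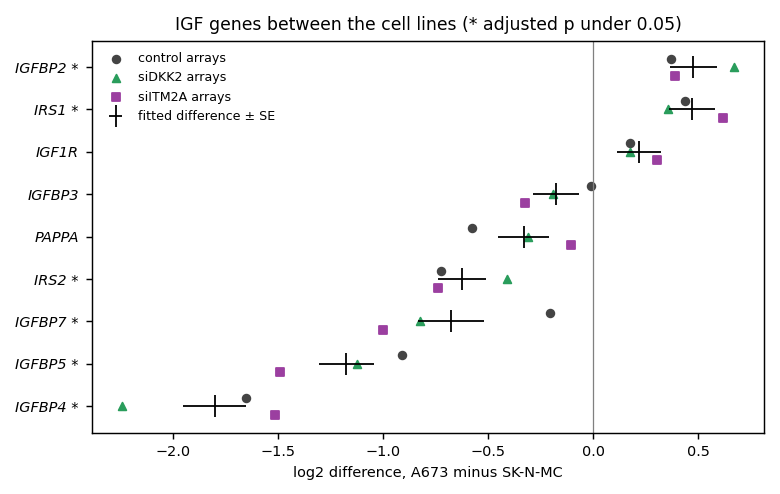
Log2 difference of A673 minus SK-N-MC (horizontal axis) for the 9 genes, ordered by size; circles, triangles and squares are the control, siDKK2 and siITM2A arrays, black bars the fitted difference ± SE, and an asterisk an adjusted p under 0.05. IGFBP4 at -1.80 and IGFBP5 at -1.17 lie farthest to the left, and IGFBP2 (0.48) and IRS1 (0.47) farthest to the right.

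Summed levels of fibroblast and muscle markers stood apart between the lines. All 4 fibroblast markers were measured, with a summed log2 level of 14.7 to 16.7 in A673 and 17.3 to 18.4 in SK-N-MC. DCN (decorin) read 2.16 to 2.25 in A673 and 4.09 to 5.23 in SK-N-MC, PDGFRB read 4.36 to 5.10 in A673 and 5.23 to 6.02 in SK-N-MC, COL1A1 was higher in A673 by value, and LUM stayed between 1.83 and 2.14 on every array, below the array medians. The 3 muscle markers summed to 8.7 to 9.1 in A673 and 9.3 to 9.7 in SK-N-MC, and 2 of them, MYOD1 and MYOG, lay below the median on every array. Of the 15 interferon genes 13 were higher in A673 past the threshold (limma; 13.8% of all genes), and over the 15 the lines differed by a median of 2.88 on the control arrays, 0.05 on the siDKK2 arrays and 2.17 on the siITM2A arrays. The part of these genes in the line differences was not tested.

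Of the rest of the IGF pathway, 60 genes were listed and 53 measured. With either siRNA against control, and between the siRNAs, 0 of the 53 passed (limma; 7, 12 and 15 at an unadjusted p under 0.05, where the shares of all genes were 8.68%, 6.91% and 8.32%). Between the lines 21 passed, 5 higher and 16 lower in A673, which is 39.6% against 28.5% of all genes. Where no gene passed, the 3 genes are named whose smaller difference of the lines was largest.

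Among the ligands only IGF1 was measured; IGF2 and INS were not analysed here. IGF1, which activates IGF1R, read 3.89, 3.89 and 3.97 in A673 (control, siDKK2, siITM2A) and 5.26, 5.25 and 6.09 in SK-N-MC. It was lower in A673 by 1.62 (difference -1.62 ± 0.16; limma, adjusted p = 0.000132). The SK-N-MC siITM2A array stood 0.84 above its control, against 0.08 in A673.

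Of 3 other receptor genes, INSR alone passed, which is 33.3% against 28.5% of all genes. The insulin receptor, a partner of IGF1R in hybrid receptors, read 3.45, 3.55 and 4.03 in A673 and 5.63, 5.47 and 5.34 in SK-N-MC, a difference of -1.81 ± 0.16 (limma, adjusted p = 7.39e-05). Its A673 control and siDKK2 values lay near the array medians, so the size of the difference is uncertain. So IGF1 and INSR were both lower in A673, where IGF1R was not shown to differ. Of the 3 other binding partners (IGFBP1, IGFBPL1 and IGFALS) 0 passed between the lines (limma, 0 at an unadjusted p under 0.05).

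Among the 8 proteases and their partners 4 passed between the lines, where 28.5% of all genes passed. MMP1, an interstitial collagenase that also cuts binding proteins, was higher in A673 by 8.44 ± 0.14 (limma, adjusted p = 4.87e-08), the lysosomal protease CTSD by 0.47 ± 0.11 (limma, adjusted p = 0.0103), and STC2, a secreted inhibitor of PAPPA, differed by -0.63 ± 0.12 (limma, adjusted p = 0.00505). MMP1 read 2.95 to 3.05 in SK-N-MC and STC2 2.87 to 3.19 in A673, below the array medians, so the exact size of either difference is uncertain. The call of CTSD was lost without either siDKK2 array (0.42) or either siITM2A array (0.47). ADAM9, a membrane metalloprotease, read 8.48, 7.71 and 8.69 in A673 and 7.05, 6.23 and 6.96 in SK-N-MC. It was higher in A673 by 1.55 ± 0.11 (limma, adjusted p = 2.11e-05). With siDKK2 it was lower by a like amount in both lines (-0.77 and -0.82; fitted -0.80 ± 0.14), without passing (limma, adjusted p = 0.213), and against siITM2A by -0.85 ± 0.14 (limma, adjusted p = 0.183, and adjusted p = 0.0414 with an intensity trend).

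Of 7 measured adaptors, GRB10 alone passed between the lines, which is 14.3% against 28.5% of all genes. This adaptor, which dampens signalling from the insulin and IGF receptors, read 2.45 to 2.53 in A673, below the array medians, and 4.62 to 5.00 in SK-N-MC, a difference of -2.34 ± 0.11 (limma, adjusted p = 2.47e-06). It was thus low in the line in which INSR and IGF1 were low.

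Of 16 measured PI3K-AKT genes, 1 was higher and 5 lower in A673 past the threshold, which is 37.5% against 28.5% of all genes. The catalytic subunit gene PIK3CB was higher (0.55 ± 0.11; limma, adjusted p = 0.00602, and 0.0559 with no replicate block), and the S6 kinase gene RPS6KB1 (-0.73 ± 0.10; limma, adjusted p = 0.000889) and the lipid phosphatase gene INPPL1 (-0.95 ± 0.17; limma, adjusted p = 0.00341) were lower. The regulatory subunit gene PIK3R3 (-0.41), the kinase gene AKT2 (-0.36) and the mTORC1 restraint TSC2 (-0.44) passed with adjusted p-values of 0.0320, 0.0315 and 0.0188 (limma), but each missed the threshold without any 1 of the 6 arrays, at -0.29 to -0.49, -0.33 to -0.40 and -0.35 to -0.51. With siDKK2, PIK3R3 read 5.13 against 5.73 in A673 control cells and 5.45 against 6.38 in SK-N-MC (-0.77 ± 0.15; limma, adjusted p = 0.244). EIF4EBP1, a brake on translation that mTORC1 releases, read 7.41 against 6.56 and 7.56 against 7.10 (0.66 ± 0.15; limma, adjusted p = 0.305). With siITM2A, EIF4EBP1 was also above the same control arrays, by 0.72 for A673 and 0.33 for SK-N-MC (limma, adjusted p = 0.682). Between the siRNAs it differed by 0.13 ± 0.15 (limma, adjusted p = 0.879).

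Insulin and IGF signalling, which was not measured here, holds back FOXO proteins. Of the 12 genes of FOXO factors and targets, 7 were lower and 1 higher in A673. That is 66.7% past the threshold against 28.5% of all genes (14.7% lower and 13.8% higher). FOXO4 (-1.18 ± 0.10), FOXO1 (-0.56 ± 0.11), the sestrin genes SESN3 (-2.41 ± 0.26) and SESN1 (-1.60 ± 0.14), TXNIP (-1.49 ± 0.13), the cyclin gene CCNG2 (-0.98 ± 0.12) and CITED2 (-0.36 ± 0.11) were lower, with adjusted p-values of 6.08e-05 to 0.0404 (limma). SESN3 read 2.01 to 2.29 in A673, below the array medians, so the size of its difference is uncertain. CITED2 missed the threshold without any 1 array (-0.27 to -0.41). TRIB1, a pseudokinase gene, was higher (1.51 ± 0.15; limma, adjusted p = 0.000139). With siITM2A, TXNIP (-1.11 for A673 and -0.68 for SK-N-MC), TRIB1 (-0.39 and -1.10) and SESN1 (0.95 and 0.47) had the largest differences of the pathway, none past the threshold (limma, adjusted p = 0.547, 0.646 and 0.623). Between siDKK2 and siITM2A, SESN1 differed by -0.87 and -1.06 (limma, adjusted p = 0.250). Of the 3 IGF2BP genes, whose products bind IGF2 mRNA, 0 passed between the lines (limma, 1 at an unadjusted p under 0.05).

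**Figure D4:**
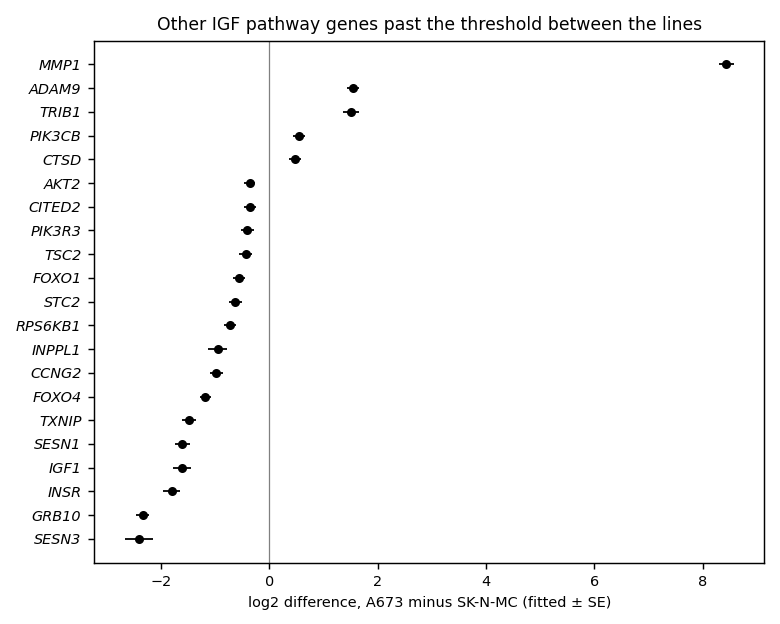
Fitted log2 difference of A673 minus SK-N-MC (horizontal axis, points with SE bars) for the 21 other IGF pathway genes past the threshold. MMP1 stands alone at 8.44 and 16 genes lie to the left of 0; MMP1 lies below the array medians in SK-N-MC, and SESN3 (-2.41), GRB10 (-2.34) and STC2 (-0.63) in A673, so their exact sizes and order are uncertain.

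The profiles most like those of the 4 genes that spanned at least 1 on the log2 scale were taken from Pearson's r over the 6 arrays, which share lines and siRNAs, as a description. IGFBP4 was nearest to ABRACL (r = 0.998 among 2438 genes) and HEXIM1 (r = 0.997), and IGFBP5 to BSPRY (r = 0.999 among 5089 genes) and PTRHD1 (r = 0.998). IGFBP7 was nearest to ATP2B4 (r = 0.999 among 9196 genes) and SYF2 (r = 0.995). IGFBP2 was nearest to OR8B12 (r = 0.992 among 6881 genes), an olfactory receptor gene whose highest value of 2.64 lies below the array medians, and NPTX1 (r = 0.982). Candidates were genes with a span of at least 0.5 times that of the gene, and no p was computed.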

How the data were processed

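The deposited values are log2 RMA values per probe set: Affymetrix Expression Console is the software and RMA the method in the submitters' processing notes, and RMA corrects background, normalizes between arrays and summarises probes, and the log2 scale was read from the range of 1.02 to 13.4. Sources used here do not give its version or settings. The table held 33297 probe sets and 6 columns. Names came from the platform annotation, which can be old: 19460 probe sets had 1 symbol, 1754 several and 12083 none, and those with several or none were not named. Of 769 genes with several probe sets, the one with the highest mean was kept, which left 18417 genes.

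Limma 3.58.1 in R 4.3.3 (lmFit and eBayes) took all 6 arrays in 1 model of siRNA plus line, the lines pairing the arrays per the labels (2 residual degrees of freedom, 8.28 after moderation). Its 4 comparisons set either siRNA against control, the siRNAs against each other, and the lines against each other, each adjusted by Benjamini-Hochberg over all genes at 0.05. The p-values measure only how evenly lines or siRNAs behaved. On simulated data for siDKK2 against control (18417 genes, 200 changed, 5 runs) the fit recovered 1.6% of those with a log2 change of 0.5, 82.8% at 1 and 99.2% at 2, with 4.81% false calls. On the deposited arrays DKK2 differed by -1.21 with siDKK2 and did not pass (limma, adjusted p = 0.209). The 15 measured interferon genes had a median fitted difference of -2.08 with siDKK2, and 0 passed (limma). Recovery on the deposited arrays was not tested.

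Genes named beyond the 10 and the targets were the pathway genes past the threshold, the 3 whose smaller difference of the lines was largest per comparison, and for likeness the 2 with the highest r. The members, lists and motifs were chosen with earlier results of these data known.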

Additional observations from a re-analysis of the deposited data

Results flagged for a closer look

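IGFBP7 had opposite signs in the lines with siITM2A against control, -0.39 in A673 and 0.41 in SK-N-MC. INSR did so too, at 0.58 and -0.28, as did CDKN1B, which encodes a cyclin-dependent kinase inhibitor, at -0.28 and 0.31. With siDKK2 against siITM2A, SESN3 stood at 0.28 for A673 and -0.94 for SK-N-MC. These are the genes of the 9 and of the 53 other pathway genes that differed at least 1.2-fold in opposite directions; 3.15% of all genes did so with siITM2A against control and 2.83% between the siRNAs. With 1 array per line and siRNA the difference between the lines was not tested. The A673 values of IGFBP7 and SESN3 lay near or below the array medians.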

How the results depend on the processing

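Alternatives were: no replicate block, the mean of a gene's probe sets, every probe set tested, genes at or above the median level of 4.04, arrays centred on their medians, an intensity trend, robust moderation, only the arrays compared (not applicable between the lines) and each array left out. The number of all genes past the threshold (limma) was 2 with siDKK2 against control, 2 with siITM2A against control and 3 between the siRNAs. In each it was 0 with no replicate block and 0 with every probe set tested. With an intensity trend it was 7 with siDKK2 against control and 16 between the siRNAs, where genes above the median level gave 6 and only the arrays compared 18; only the arrays compared gave 0 for siDKK2 against control. Leaving out 1 array gave 0 to 60, 0 to 4 and 1 to 50 genes. The line count of 5256 stayed within 1.5 times, and the 6 of 9 IGF genes became 3 to 6 with 1 array left out; above the median level IGFBP3, IGFBP5 and IGFBP7 were not tested.

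Among the IGF genes, signs changed under some alternative only for siRNA differences that had not passed. Centring the arrays turned the siDKK2 difference of IGFBP3 to 0.00 and of PAPPA to 0.03, and that of IGFBP3 between the siRNAs to 0.02. With 1 array left out, siDKK2 against control gave -0.16 to 0.09 for IGFBP3, -0.55 to 0.11 for IGFBP4, -0.30 to 0.41 for IGFBP7 and -0.19 to 0.17 for PAPPA. For siITM2A against control the ranges were -0.02 to 0.11 for IGF1R, -0.14 to 0.03 for IRS2, -0.15 to 0.09 for IGFBP3, -0.21 to 0.22 for IGFBP4, -0.16 to 0.31 for IGFBP5, -0.34 to 0.36 for IGFBP7 and -0.08 to 0.49 for DKK2. Between the siRNAs they were -0.05 to 0.08 for IGF1R, -0.12 to 0.11 for IGFBP3, -0.56 to 0.10 for IGFBP4, -0.03 to 0.44 for IGFBP5 and -0.20 to 0.29 for IGFBP7. The cause was not tested. Signal over background was not measured, which limits IGFBP3, IGFBP5 and IGFBP7 most.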
